A study of Mus musculus with 20 samples.

Results

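The replication-dependent histone genes were taken as every row of the expression table whose gene symbol starts with Hist1h, Hist2h, Hist3h or Hist4h, which gave 67 of 23402 rows. They comprised 6 genes of the linker histone H1, 18 of H2A, 18 of H2B, 12 of H3 and 13 of H4. They were measured in MC38 tumours, grown under the skin from a mouse line of colon adenocarcinoma, in 10 libraries of vehicle-treated tumours (Control) and 10 of tumours treated locally with ATBx (P.T.ATBx, for peri-tumoral ATBx). By its title the study deals with microbes in tumours and interferon signalling. ATBx usually stands for antibiotics; no agent, dose, schedule, mouse strain or age is named in the labels. The line and the tumour site were the same in both groups. Nothing says that libraries stem from separate animals, and p-values then reflect the spread between these samples alone, part of which may be technical.

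Each nucleosome wraps DNA around an octamer of histones H2A, H2B, H3 and H4, and histone H1 binds where DNA enters and leaves it. The replication-dependent genes supply these proteins during S phase, when new DNA has to be packaged, and they lie in clusters with several near-identical copies of each class. Their mRNAs are the main class of animal mRNA that ends in a conserved stem-loop, bound by the stem-loop binding protein Slbp and processed with the U7 small nuclear RNA, in place of a poly(A) tail. The library kit worked from total RNA, and such kits keep RNA without a poly(A) tail. Proliferating tumour cells are a rich source of these mRNAs, but in bulk tissue fewer cells in S phase and less histone mRNA per cell cannot be told apart.

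The stem-loop that ends these mRNAs was looked for in the GENCODE M21 transcript models (GRCm38) downstream of the stop codon, and it was found in 46 of the 67 members, in 8 kinds and 21 to 58 bases past the stop codon. The models ran on for 3 to 4884 bases after it, so not all of them end near the stem-loop. In the other models none was found, which does not show that those genes lack one. Several of these models, such as those of Hist1h2bl, Hist1h2bn, Hist1h3h and Hist1h4k, hold the coding sequence alone and could not contain it. One example of each of 4 kinds is shown, because the base pairs of the stem separate H4 from the other classes; capitals mark the 16 bases of stem and loop, and positions are those of the capitals.
Hist1h2ab, H2A, chr13:23751572-23751587, plus strand: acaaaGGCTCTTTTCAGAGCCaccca
Hist1h3c, H3, chr13:23745047-23745062, minus strand: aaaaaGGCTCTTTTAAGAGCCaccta
Hist1h4d, H4, chr13:23581950-23581965, plus strand: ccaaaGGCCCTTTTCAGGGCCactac
Hist1h4b, H4, chr13:23757366-23757381, plus strand: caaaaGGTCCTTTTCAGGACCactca
The first form was the most frequent: 10 H2A, 8 H2B, 5 H3 and 3 H1 models carried it, and no H4 model did. The form shown for Hist1h3c was in 3 H3, 2 H2B and 1 H1 models. Of the 12 H4 models with a stem-loop, 7 had the form of Hist1h4d and 2 that of Hist1h4b, and the other 3 had the same stem as Hist1h4d with a different loop. Loops thus varied within classes, while no stem of an H4 model was found in a model of another class.

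Promoters were read from a RefSeq table (GRCm38.p6) that held one for 61 of the 67 members, each as 250 bases before to 50 after the start of the gene. For 1 highly expressed member of each class the 120 bases before the start are shown, because the elements found there differ between classes. These examples were picked by level and are not typical of their class for every motif. Capitals mark matches on either strand to 4 motifs. The first is the CCAAT box, known to bind the factor NF-Y. The second is the TATA box, searched as TATAAA. The third is the octamer known to bind the factor Oct-1, searched as ATTTGCAT. The last is the H1 box, searched as AAACACA and known from linker histone genes. Each promoter is written 5′ to 3′ on the strand of the gene.
Hist1h1b, H1, chr13:21780626-21780745, minus strand: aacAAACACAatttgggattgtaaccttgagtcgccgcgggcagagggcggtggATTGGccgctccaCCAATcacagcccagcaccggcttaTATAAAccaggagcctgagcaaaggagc
Hist1h2ak, H2A, chr13:21753913-21754032, minus strand: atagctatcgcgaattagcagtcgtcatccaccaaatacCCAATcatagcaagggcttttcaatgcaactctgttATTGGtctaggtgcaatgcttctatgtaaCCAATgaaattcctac
Hist2h2bb, H2B, chr3:96269580-96269699, plus strand: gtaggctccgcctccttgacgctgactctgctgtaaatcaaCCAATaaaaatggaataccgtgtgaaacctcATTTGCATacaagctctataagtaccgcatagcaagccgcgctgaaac
Hist1h3c, H3, chr13:23745522-23745641, minus strand: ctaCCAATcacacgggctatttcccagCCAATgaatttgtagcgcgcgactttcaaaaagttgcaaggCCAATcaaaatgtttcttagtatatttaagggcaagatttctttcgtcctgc
Hist1h4d, H4, chr13:23581448-23581567, plus strand: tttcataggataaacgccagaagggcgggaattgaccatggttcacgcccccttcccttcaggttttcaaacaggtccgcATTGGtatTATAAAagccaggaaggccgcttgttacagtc
Over the full window, CCAAT matched in all 6 H1, 18 H2A, 15 H2B and 10 H3 promoters and in 3 of 12 H4 promoters, against 37.9% of all 27025 promoters of the same length. Hist1h4d, shown with a match on the other strand (ATTGG), is among those 3 H4 promoters. TATAAA matched in 35 of the 61 member promoters (57.4%), against 14.2% of all. The octamer matched in 7 of 18 H2A and 6 of 15 H2B promoters and in none of the other classes, against 1.75% of all. The bases shown for Hist1h2ak hold neither TATAAA nor the octamer. The H1 box matched in 5 of 6 H1 promoters, in 2 H2A and 2 H2B promoters, and in 7.14% of all. Some H2A and H2B genes lie head to head, and their windows overlap. Hist1h2ae on the minus strand ends at chr13:23571220, and Hist1h2bg on the plus strand starts at chr13:23571400. The same site can thus be counted for an H2A and an H2B promoter, so these counts are not separate. No motif searched contains another, and a match describes the letters in the window, not a bound site.

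Levels are given as FPKM, fragment counts divided by gene length and by the size of the library. Comparisons between genes are rough here, because the lengths used and the assignment of reads shared between copies are not given. The members covered a wide range: 49 had a mean over 10 FPKM and 31 a mean over 100 FPKM over the 20 libraries. The H4 gene Hist1h4d stood highest at a mean of 1963 FPKM, followed by the H2B gene Hist2h2bb at 1108 and the H4 gene Hist1h4f at 918. The 10 highest members together held 61.6% of the members' summed FPKM. By class, H4 made up 43.8% of that sum, H2B 29.2%, H1 10.99%, H3 9.85% and H2A 6.16%. These shares depend on how reads of near-identical copies were assigned.

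A further 6 members were listed at 0 in every library: the H2A genes Hist2h2aa1, Hist1h2ad, Hist1h2ap and Hist1h2ao, the H2B gene Hist1h2bq and the H4 gene Hist1h4n. Between 72.2% and 99.5% of the 50-base stretches in their transcripts (median 92.5%) also occur in a transcript of another gene, against a median of 53.6% (0 to 100%) for the other 61 members. For this the members' transcript models were cut 5 bases past a stem-loop where one was found. Some models hold the coding sequence alone, so the shares are not fully alike between members. A listed 0 in such a table can be a failed estimate, and how the authors assigned reads that match several copies is not given in the sources used here. The level of any member with a near-identical copy is therefore uncertain, while 5 members share no such stretch with another gene: Hist1h1b, Hist1h1a, Hist1h1t, Hist2h2be and Hist4h4. All stretches of Hist3h2a also lie in transcripts of Trim17, and reads of overlapping genes can be split between them. Another 5 members were above 0 but under the mean of 0.5 FPKM needed for testing, and 3 of them are known from the male germ line: the linker histone Hist1h1t at a mean of 0.241 FPKM, Hist1h2aa at 0.15 FPKM and Hist1h2ba at 0.179 FPKM. The other 2 were Hist2h3c2 at 0.301 FPKM and Hist2h2aa2 at 0.0135 FPKM. That left 56 members among 12788 tested rows.

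**Figure D1:**
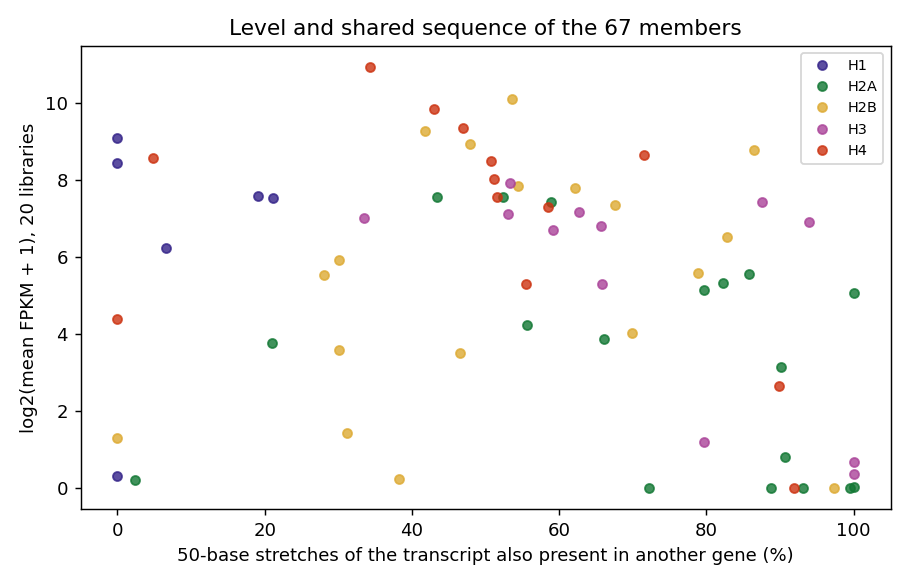
Level against shared sequence for the 67 members, coloured by histone class. The x axis gives the percentage of 50-base stretches of a gene's transcript models, cut after any stem-loop found, that also occur in another gene. The y axis gives log2 of the mean FPKM plus 1 over 20 libraries. The members at the bottom right, with most of their sequence shared, include the 6 listed at 0, whereas the H1 genes Hist1h1b and Hist1h1a at the left share none and lie at 544 and 347 FPKM.

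Libraries differed within both groups. Summed FPKM ran from 556770 to 752782, and 2 short RNAs of ribonuclease complexes, Rpph1 and Rmrp, made up 7.75% to 20.5% of it. A relative depth ran from 0.797 to 1.28. It was the inverse of the most common ratio of low values to those of Control 1, divided by its mean over libraries. A sum over 620000 was found in 4 libraries, Control 1, Control 3, P.T.ATBx 1 and P.T.ATBx 4. Epithelial markers, looked at because the line is a carcinoma, were low in most libraries: the summed FPKM of Epcam, Krt8, Krt18, Krt19, Cdh1, Cldn4 and Cldn7 ran from 4.06 to 186 in Control and from 12.5 to 56.6 in P.T.ATBx, and Epcam itself lay between 0.297 and 10.6 FPKM in Control and between 0.997 and 3.75 FPKM in P.T.ATBx. The library numbers in the labels run on from the Control to the P.T.ATBx samples, so any order of preparation and the treatment cannot be told apart.

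Between the groups, no histone gene passed the adjusted threshold, but most stood lower in P.T.ATBx by a small amount. Of the 56 tested members, 51 (91.1%) had a lower mean log2 level in P.T.ATBx, where 48.5% of all tested rows did. At an unadjusted p under 0.05, 18 members (32.1%) were lower, against 6.08% of all rows, and 0 were higher, against 7.51% of all rows. Hist1h2ah, among the 18, passed the filter of 0.5 FPKM only through its Control values. With a filter of 1 FPKM the 18 became 17. At an adjusted p under 0.05 by limma the count was 0 of 56 in either direction, against 0.845% of all rows, with 0.383% of rows lower and 0.461% higher. The groups of 10 overlapped for every member; they did not overlap for 0.133% of all rows. The median log2 fold change of the members was −0.18 on the log2(FPKM + 1) scale, a scale that understates the change of low genes, and the median of all rows was 0.00. Under quantile normalization 1 member passed, Hist1h2bn, and under a rescaling to 1 sum per library (TPM scale) 1 passed, Hist1h4d (limma adjusted p = 0.0253). With the short RNAs left out of that sum 0 passed, Hist1h4d being at an adjusted p of 0.0584. Members moved together across libraries, as described further on, so the 18 are not separate observations. The same holds for the counts of P.T.ATBx libraries under a Control median given below, whose share over all rows was not worked out.

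Summed over all 67 members, FPKM ran from 10841 through a median of 12441 to 17730 in Control and from 9813 through 11186 to 14780 in P.T.ATBx. The means were 13013 ± 2310 and 11385 ± 1394 FPKM (SD, n = 10 each), a ratio of 0.875, and 9 of 10 P.T.ATBx libraries lay under the Control median. The highest Control library was Control 1 and the highest P.T.ATBx library P.T.ATBx 1. Control 1 and P.T.ATBx 1 were also the libraries with the largest summed FPKM over all genes and the largest share of Rpph1 and Rmrp (20.5% and 17.2%). As a share of all FPKM in a library, the members took 1.92% to 2.61% in Control and 1.73% to 2.11% in P.T.ATBx. Leaving out Control 1 moved the log2 ratio of the summed FPKM from −0.19 to −0.13, and leaving out P.T.ATBx 1 moved it to −0.24. The number of members lower at an unadjusted p under 0.05 fell to 11 without Control 1, to 11 without Control 6 and to 11 without the 4 libraries of large sum, and it was 28 without P.T.ATBx 1.

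**Figure D2:**
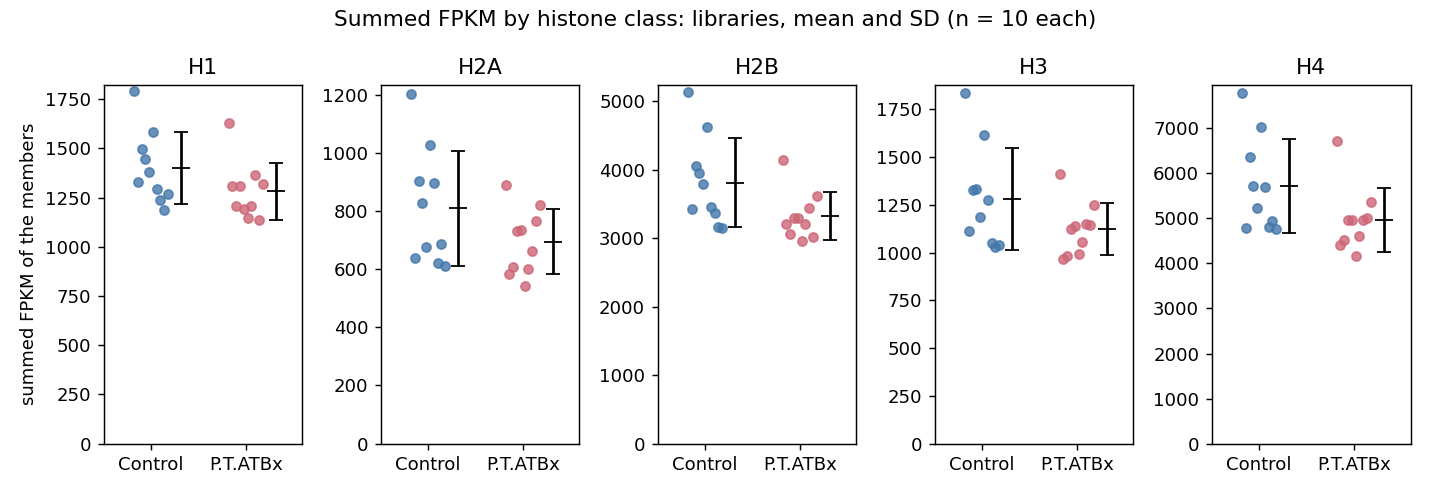
Summed FPKM of the members of each histone class (y axis) in every library, Control in blue and P.T.ATBx in red, with libraries 1 to 10 from left to right and the mean and SD beside them (n = 10 each). Within each class the ranges overlap, and Control 1 and P.T.ATBx 1, the leftmost points, are the highest of their groups.

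Linker histones were lower in mean for all 5 tested H1 members, by a median log2 fold change of −0.10, and 1 had an unadjusted p under 0.05. Hist1h1b, the H1.5 gene (Entrez 56702, chr13:21779832-21780625 in GRCm38.p6) and the most abundant H1 here, ran from 476 through a median of 582 to 729.7 FPKM in Control and from 429.6 through 494 to 619 FPKM in P.T.ATBx. Its log2 fold change was −0.19 (SE 0.07, limma unadjusted p = 0.0196, adjusted p = 0.264). The ranges overlapped, with 9 of 10 P.T.ATBx libraries under the Control median. Hist1h1a (H1.1) had means of 358 ± 58.7 and 336 ± 57.8 FPKM in Control and P.T.ATBx (SD, n = 10 each). Hist1h1c (H1.2) had 199 ± 24.0 and 185 ± 18.1 FPKM, and Hist1h1d (H1.3) had 77.4 ± 12.04 and 71.5 ± 6.82 FPKM. The log2 fold changes of these 3 genes lay between −0.10 and −0.09, within the spread between libraries. Without Control 1 they were −0.04 for Hist1h1a, −0.07 for Hist1h1c and −0.05 for Hist1h1d, and without P.T.ATBx 1 Hist1h1a was at −0.15. Their adjusted p-values by limma ran from 0.527 to 0.726. Hist1h1e (H1.4), at 186 ± 17.5 and 181 ± 13.6 FPKM, had the smallest difference of the class at −0.04.

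Among the H2A genes, whose proteins pair with H2B in the nucleosome, 11 of 12 tested members were lower in mean and 3 had an unadjusted p under 0.05, with a median log2 fold change of −0.21. The lowest fold change of any member belonged to Hist1h2ah, at −0.51 (SE 0.20, limma adjusted p = 0.25). With a pseudocount of 0.1 in place of 1 it was −0.95 (limma adjusted p = 0.439), and −0.32 with arrayWeights, so its size depends on these settings. Its level was 0 to 2.39 FPKM in Control and 0 to 0.644 FPKM in P.T.ATBx, and 90.7% of its stretches occur in another gene. All 10 P.T.ATBx libraries lay under its Control median of 1.47 FPKM, though the ranges overlapped at the bottom. Its mean was 1.13 FPKM in Control and 0.393 FPKM in P.T.ATBx, so it passed the filter of 0.5 FPKM through Control alone. With a filter of 1 FPKM it was not tested. Hist1h2ae ran from 11.3 through a median of 19.8 to 34.6 FPKM in Control and from 9.95 through 13.9 to 21.1 FPKM in P.T.ATBx, a log2 fold change of −0.47 (SE 0.18, limma adjusted p = 0.262). Control 1 and Control 6 were its high libraries. Hist1h2ac had means of 14.9 ± 3.44 and 12.2 ± 1.73 FPKM (log2 fold change −0.25). The most abundant H2A genes, Hist1h2ak, Hist2h2ac and Hist1h2ab, had Control means of 205 ± 59.5, 196 ± 44.3 and 189 ± 51.3 FPKM and P.T.ATBx means of 171 ± 33.5, 177 ± 31.6 and 154 ± 23.4 FPKM, with unadjusted limma p-values of 0.128, 0.266 and 0.0571. The log2 fold change of Hist2h2ac was −0.14, and −0.07 without Control 1 and −0.09 without P.T.ATBx 6. Hist3h2a was the single tested H2A member with a positive value, 0.02.

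H2B held the most members with a low unadjusted p, 8 of 16 tested, with 14 of 16 lower in mean and a median log2 fold change of −0.20. Hist1h2bn (Entrez 319187, chr13:21754076-21754553) ran from 390.1 through a median of 451 to 622 FPKM in Control and from 352 through 392 to 513 FPKM in P.T.ATBx. Its log2 fold change was −0.24 (SE 0.08, limma unadjusted p = 0.0084, adjusted p = 0.184), the second smallest p of the members. For Hist1h2bg the values were 141 through 172 to 247 FPKM and 125 through 147 to 185 FPKM, with a log2 fold change of −0.24 (SE 0.09, limma adjusted p = 0.205). In both genes 9 of 10 P.T.ATBx libraries were under the Control median, and the upper P.T.ATBx libraries reached into the Control range. Hist1h2bm (chr13:21722044-21722526) had means of 541 ± 118 and 446 ± 51.1 FPKM (log2 fold change −0.26). Hist1h2bb had 671 ± 119.8 and 572 ± 71.8 FPKM (−0.22). Hist2h2bb, the second most abundant member, had 1153 ± 175 and 1062 ± 128 FPKM, a log2 fold change of −0.11 (SE 0.08, limma adjusted p = 0.583) that did not exceed the spread and was −0.07 without Control 1. The other members with an unadjusted p under 0.05 were Hist1h2be at 49.4 ± 9.79 and 41.8 ± 4.18 FPKM, Hist1h2bj at 241 ± 48.4 and 205 ± 24.8 FPKM, Hist1h2bh at 244 ± 36.3 and 216 ± 15.3 FPKM, and Hist2h2be at 1.64 ± 0.307 and 1.32 ± 0.279 FPKM. Their log2 fold changes lay between −0.22 and −0.16, and for Hist1h2bh all 10 P.T.ATBx libraries were under the Control median. Hist1h2bc and Hist3h2ba had positive log2 fold changes of 0.02 and 0.01.

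Of the H3 genes, whose proteins form the core tetramer of the nucleosome with H4, 9 of 11 tested members were lower in mean, 3 had an unadjusted p under 0.05 and the median log2 fold change was −0.08. Hist1h3h (Entrez 319152, chr13:21717628-21718115) ran from 77.3 through a median of 130.02 to 209.9 FPKM in Control and from 65.4 through 101 to 133 FPKM in P.T.ATBx, a log2 fold change of −0.42 (SE 0.17, limma adjusted p = 0.285). Hist1h3c, the most abundant H3 gene and the one whose promoter is shown with 3 CCAAT matches, ran from 203 through 262 to 411 FPKM and from 186 through 219.5 to 275 FPKM, a log2 fold change of −0.26 (SE 0.11, limma adjusted p = 0.3). In both, 9 of 10 P.T.ATBx libraries were under the Control median. Hist1h3a had means of 149 ± 27.1 and 127 ± 14.96 FPKM (log2 fold change −0.21) and Hist1h3i of 187 ± 45.6 and 156 ± 23.7 FPKM (−0.24). Hist1h3e, at 147 ± 41.0 and 139 ± 23.7 FPKM, had a log2 fold change of −0.06 that turned to 0.03 without Control 1. The positive values in this class were Hist1h3b at 0.02 and Hist2h3b at 0.03. Hist1h3h and Hist1h3i each have over 85% of their stretches in another gene, at 93.9% and 87.6%, and the split of reads between such copies is uncertain. Both shares were read from models that hold the coding sequence alone.

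H4 had the largest summed FPKM of the classes, with 12 of 12 tested members lower in mean, 3 at an unadjusted p under 0.05 and a median log2 fold change of −0.18. Hist1h4d (Entrez 319156, chr13:23581568-23581969), whose stem-loop and promoter are shown, ran from 1859.8 through a median of 2061 to 2621 FPKM in Control and from 1573 through 1757 to 2293 FPKM in P.T.ATBx. Its log2 fold change of −0.23 (SE 0.08, limma unadjusted p = 0.00528, adjusted p = 0.151) had the smallest p among the members. The ranges overlapped, but 9 of 10 P.T.ATBx libraries lay under the Control median. Hist1h4b, with the less common stem, ran from 127 through 171 to 252 FPKM and from 109.95 through 135 to 191 FPKM, a log2 fold change of −0.33 (SE 0.12, limma adjusted p = 0.212). Here too 9 of 10 P.T.ATBx libraries were under the Control median, and the ranges overlapped. Hist1h4f had means of 986 ± 197 and 849 ± 120.3 FPKM (log2 fold change −0.20, limma unadjusted p = 0.0498) and Hist1h4c of 695 ± 155 and 602 ± 112 FPKM (−0.20, p = 0.106). Further H4 genes with Control means over 300 FPKM, Hist1h4k, Hist2h4 and Hist1h4h, were at log2 fold changes of −0.17, −0.05 and −0.07, within the spread between libraries.

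**Figure D3:**
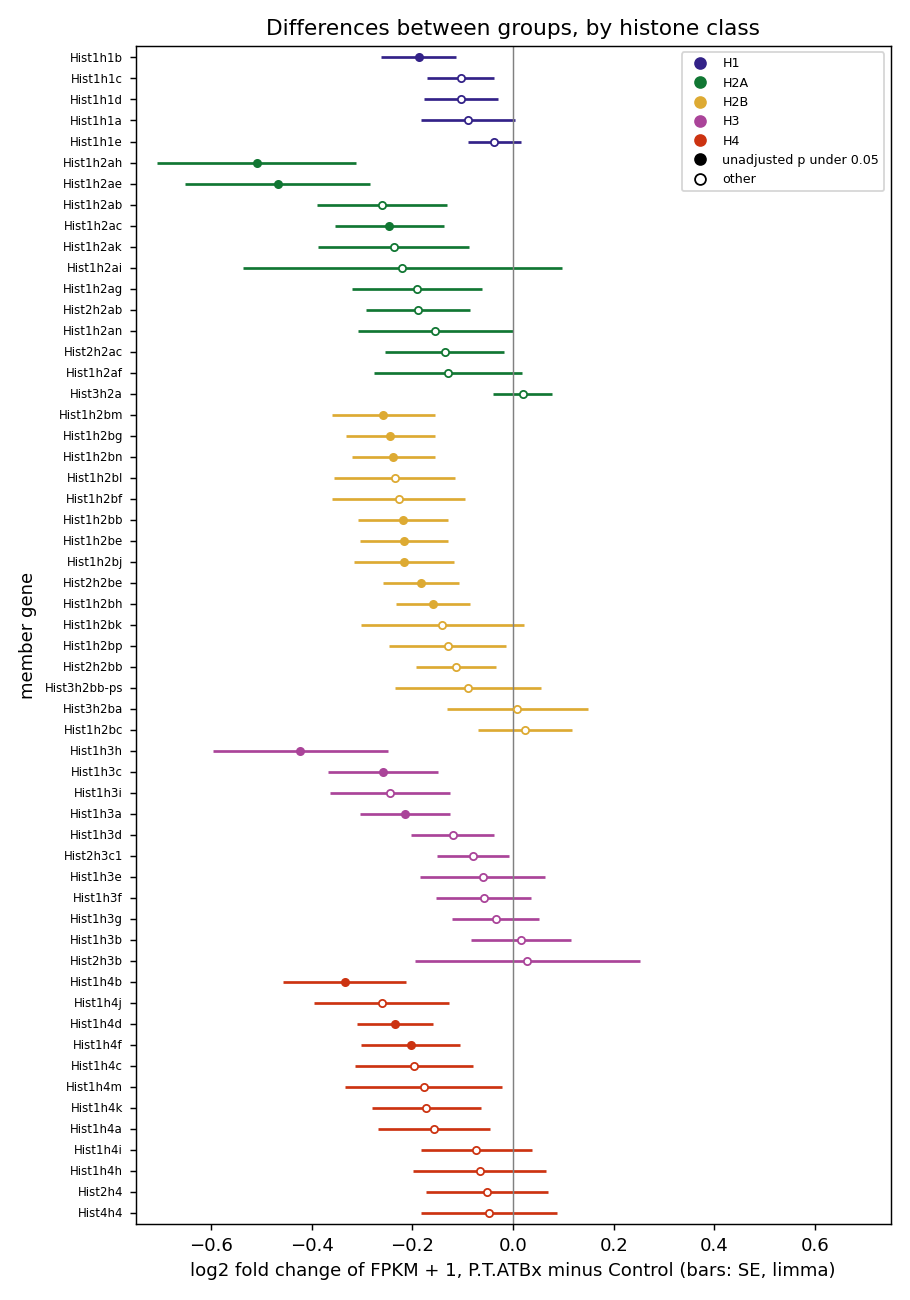
Log2 fold change of FPKM plus 1, P.T.ATBx minus Control, with its SE from limma (x axis) for the 56 tested members, ordered within histone class; filled points have an unadjusted p under 0.05. Most points lie left of 0, the median being −0.18, and no member passed the adjusted threshold.

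By genomic cluster, the large Hist1 cluster on chromosome 13 held 53 rows and 85.6% of the members' summed FPKM. Of its 45 tested members 43 were lower in mean and 17 had an unadjusted p under 0.05, with a median log2 fold change of −0.20. The Hist2 cluster on chromosome 3 had 10 rows, and 6 of its 7 tested members were lower with a median of −0.11; the 1 member with an unadjusted p under 0.05 was Hist2h2be. On chromosome 11 the 3 Hist3 rows, 1 of them the pseudogene Hist3h2bb-ps, had a median of 0.01, and Hist4h4, the single gene of chromosome 6, was at −0.05. Differences between the clusters were not tested.

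Across libraries the histone genes moved together. After centring each member on its group mean, the 1540 pairs of tested members had a median Pearson r of 0.68 over the 20 libraries, and 96.4% of the pairs were positive. The median was highest within H1 (0.91) and H4 (0.88) and lower within H2A (0.64), H2B (0.61) and H3 (0.53), and it was 0.68 for pairs between classes. The points share libraries, depth and scaling, and pairs of near-identical copies share reads, so these coefficients are descriptions. Against the mean of the other members, Hist4h4, which shares no stretch with another gene, had r = 0.97, Hist1h3c 0.97 and Hist1h3f 0.97. The only negative value was that of Hist2h2be, an H2B gene known in mouse for its expression in olfactory neurons, at −0.18 with a mean of 1.48 FPKM. Others lay well under the median of 0.87, among them Hist2h3b at 0.33, Hist1h2ah at 0.36 and Hist1h3b, with a mean of 112 FPKM, at 0.40. Control 1 held the highest Control value for 45 of 56 members, and P.T.ATBx 1 the highest P.T.ATBx value for 44 of 56.

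**Figure D4:**
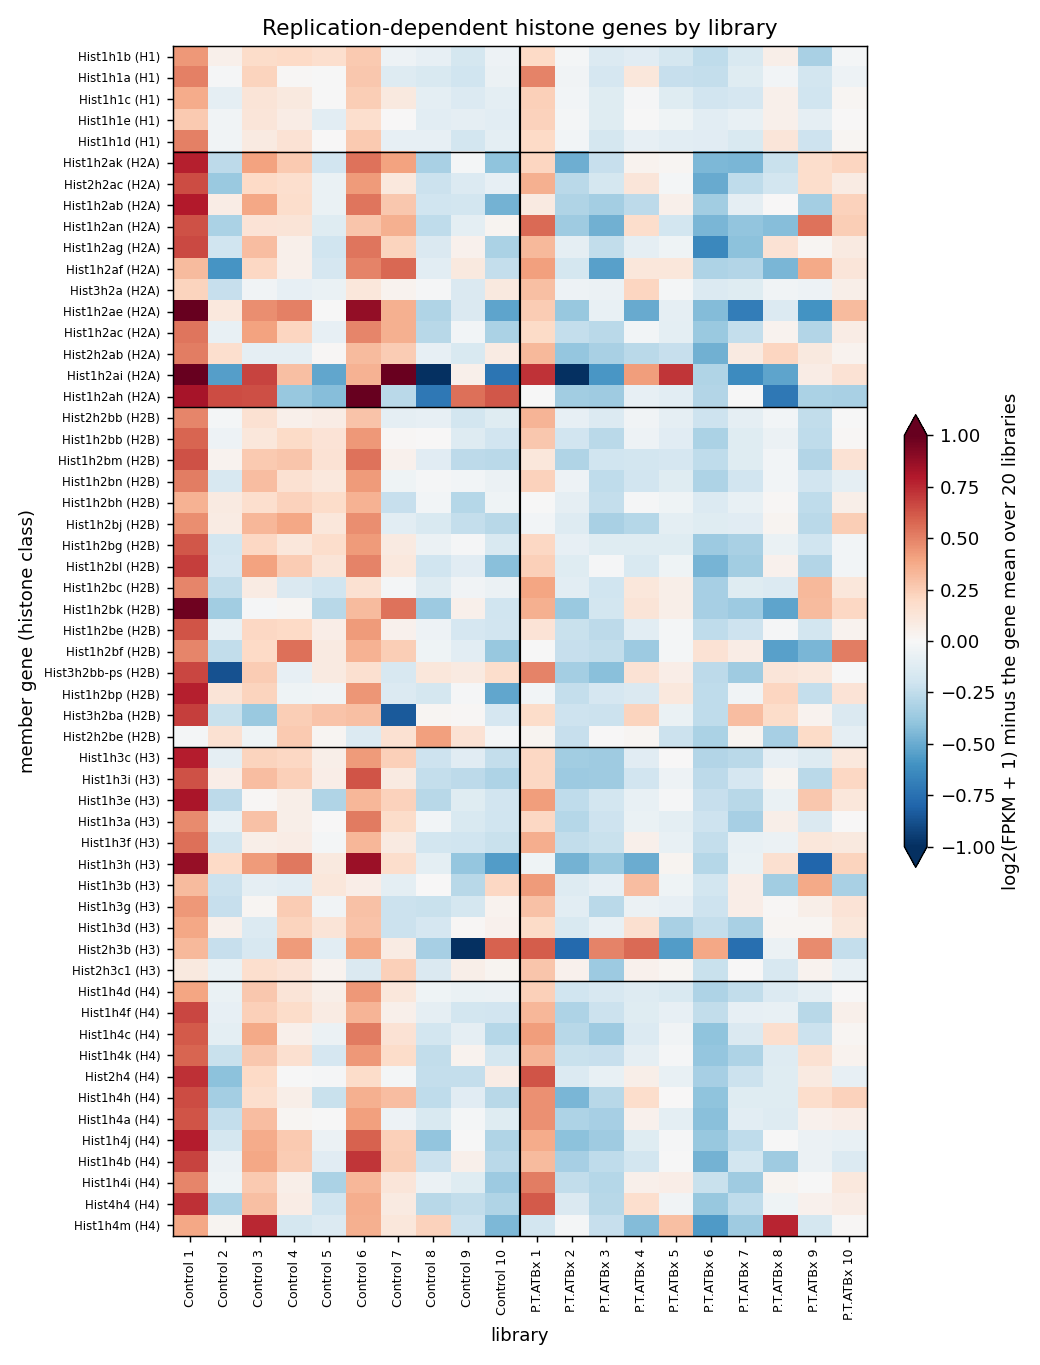
Log2(FPKM + 1) of the 56 tested members minus each gene's mean over 20 libraries (colour), with members in rows grouped by histone class and libraries in columns, the vertical line separating Control from P.T.ATBx. Columns rather than rows carry most of the pattern: Control 1, Control 6 and P.T.ATBx 1 are high in nearly all members, and Hist2h2be does not follow them.

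Companion genes give the setting of these values; their lists were chosen with earlier results of these data known. The replacement histones, which are made outside S phase and mostly carry poly(A) tails, had 10 tested genes with a median log2 fold change of 0.00, 0 past the adjusted limma threshold and 1 at an unadjusted p under 0.05. That gene was H3f3a, an H3.3 gene, at 113 ± 24.7 FPKM in Control and 132 ± 20.4 FPKM in P.T.ATBx (log2 fold change 0.23, limma adjusted p = 0.324). H3f3b, the other H3.3 gene, was at 0.08 and the linker histone H1fx at −0.21. Genes of histone mRNA processing, such as Slbp, Npat and the U7 protein Lsm11, had a median of −0.01 over 19 tested, with 0 at an unadjusted p under 0.05; Lsm11 was at −0.06, the RNA helicase Upf1 at −0.13 and Zcchc11 at 0.09. Histone chaperones had a median of −0.02 over 20 tested, 16 of them negative and 0 at an unadjusted p under 0.05. Asf1b, the S-phase chaperone of H3 and H4, was at −0.10, the FACT subunit Ssrp1 at −0.09 and Hira, which deposits H3.3, at −0.06.

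Genes of DNA replication, the process that histone supply accompanies, had a median log2 fold change of −0.07 over 34 tested. Of these 27 were lower in mean, 5 at an unadjusted p under 0.05, and 0 passed the adjusted limma threshold. The MCM helicase subunit Mcm3 had means of 60.0 ± 6.67 FPKM in Control and 51.9 ± 5.73 FPKM in P.T.ATBx (log2 fold change −0.21, limma adjusted p = 0.165). The origin licensing factor Cdc6 was at −0.18 and Mcm7 at −0.13. Mitosis genes had a median of −0.08 over 25 tested, with 23 lower in mean, 5 at an unadjusted p under 0.05 and 0 past the adjusted threshold. The mitotic kinases Aurkb and Aurka were both at −0.16 (limma adjusted p = 0.0608 and 0.129) and the cytokinesis protein Anln at −0.19. With the mean level of the DNA replication genes as a covariate, the median of the histone members was −0.10 in place of −0.18, and 3 in place of 18 had an unadjusted p under 0.05. Because the DNA replication genes were themselves mostly lower in P.T.ATBx, such a fit can take up part of a group difference whatever its source. The part of S-phase activity in the histone values was not tested.

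Other cell types and other RNAs were followed across the same libraries. Of the lists for T and NK cells, monocytes and macrophages, neutrophils, B cells, erythroid cells, fibroblasts, endothelium, keratinocytes, skeletal muscle, fat and epithelium, 1 gene passed the adjusted limma threshold, the fibroblast proteoglycan Dcn, which fell from 672 ± 40.1 to 543 ± 39.5 FPKM (adjusted p = 0.00125). Summed markers of T and NK cells ran from 42.9 to 101 FPKM in Control and from 29.6 to 90.8 FPKM in P.T.ATBx, with a median log2 fold change of −0.23 over 10 tested genes and 8 of them negative. Fibroblast markers, 7 of 7 negative with a median of −0.14, ran from 2589.8 to 3508 and from 2380.1 to 3654 FPKM. Summed fat markers ran from 49.3 to 1429 FPKM in Control and from 69.0 to 407 FPKM in P.T.ATBx. Summed FPKM of the other lists, Control first, was 2089 to 3411 and 1958 to 3089 for monocytes and macrophages, 9.96 to 85.7 and 9.05 to 25.6 for neutrophils, and 58.9 to 87.2 and 61.9 to 80.1 for endothelium. It was 5.34 to 22.3 and 4.74 to 14.4 for erythroid cells, 1.44 to 8.42 and 1.75 to 8.96 for keratinocytes, 0.798 to 70.9 and 1.2 to 42.0 for skeletal muscle, and 1.57 to 3.65 and 1.21 to 3.13 for B cells. Their median log2 fold changes were −0.04 over 9 tested genes for monocytes and macrophages, −0.32 over 4 for neutrophils and −0.02 over 5 for endothelium. They were −0.24 over 3 for keratinocytes, 0.45 over 5 for skeletal muscle, −0.43 over 4 for fat and −0.24 over 7 for epithelium. With 1 tested gene each, erythroid cells were at −0.37 and B cells at −0.07. None of the listed genes present in the table was at 0 in every library. The part of these cell types in the histone values was not tested.

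Short RNAs without a poly(A) tail, such as Rpph1, Rmrp, Terc and the small Cajal body RNAs, varied more between libraries than between groups. Their summed FPKM ran from 44710.4 to 158027 in Control and from 52964 to 123759 in P.T.ATBx, with a median log2 fold change of 0.01 over 9 tested and 0 past the adjusted limma threshold. Scarna13 was at −0.18, Terc at −0.22 and Rnu12 at 0.43. The mean level of the histone members followed that of the short RNAs within Control (Pearson r = 0.58, Spearman rho = 0.71) and within P.T.ATBx (r = 0.53, rho = 0.55), as a description over 10 libraries each that share their scaling. Without Control 1 and without P.T.ATBx 1 the r was 0.52 and 0.55. With DNA replication genes it was 0.44 (Control) and 0.14 among P.T.ATBx libraries, and 0.57 and −0.03 without those libraries. With mitosis genes it was −0.35 and −0.32, and without them 0.30 and −0.20, so the sign in Control rests on Control 1. With replacement histones it was 0.77 and 0.79, and 0.47 and 0.52 without them. Some cell type lists had an r in Control as high as that of the short RNAs or higher: 0.73 for the 1 tested erythroid gene, Hba-a1, 0.64 for the 1 tested B-cell gene, Cd79b, and 0.60 for fat. In P.T.ATBx these were 0.19, 0.46 and −0.11. With the short RNA level as a covariate, the median log2 fold change of the histone members was −0.17 and 22 of 56 had an unadjusted p under 0.05.

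The tested rows outside the members whose group-centred levels were most like the members' mean over the 20 libraries were H2afx (r = 0.91), Rplp1 (0.91), Ppdpf (0.90), 2810428I15Rik (0.89), Sf3b5 (0.89), Cox8a (0.89), Romo1 (0.89), Rnaseh2c (0.88), Rpl27a (0.88) and Cox5a (0.88). H2afx is the H2A.X gene, whose mRNA is known in human cells both with a stem-loop and with a poly(A) tail; Rplp1 and Rpl27a encode ribosomal proteins, and Cox8a and Cox5a encode subunits of cytochrome c oxidase. H2afx stood at a log2 fold change of −0.14 and Rplp1 at 0.06 between the groups, both with a limma adjusted p over the threshold (0.629 and 0.81). Transcript length moved with this likeness. Among 12035 tested rows with a GENCODE length, the median r with the histone level was 0.24 in the shortest of 10 bins and −0.36 in the longest. In the shortest bin the median log2 fold change between the groups was 0.01, and 5.81% of rows were lower at an unadjusted p under 0.05, near the 6.08% of all rows. The part of transcript length in the covariation of the histone genes was not tested.

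**Figure D5:**
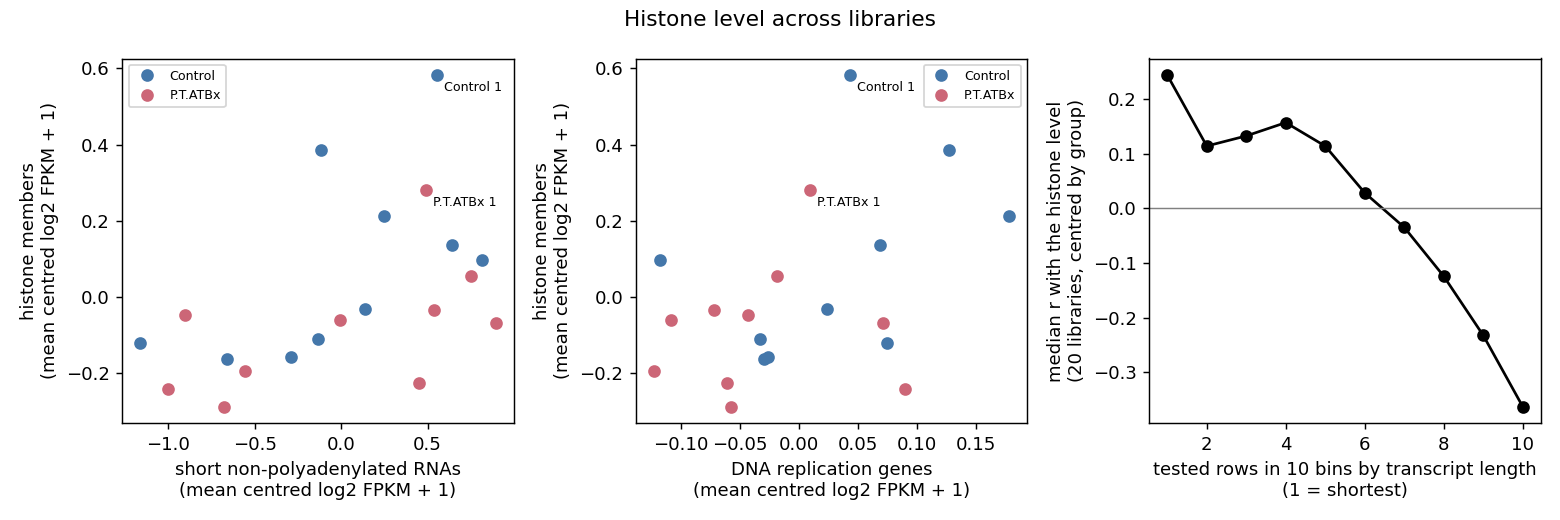
Mean centred log2(FPKM + 1) of the tested histone members (y axis) against that of short non-polyadenylated RNAs (left) and DNA replication genes (middle) in the 20 libraries, and the median correlation of other tested rows with the histone level in 10 bins of transcript length (right). Control 1 and P.T.ATBx 1 are the highest of their groups, and the median r declines from 0.24 in the shortest bin to −0.36 in the longest.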

How the data were processed

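The authors deposited 1 table of FPKM with 23402 rows and 20 library columns; the build was mm10, per the submitters' processing notes, while aligner, quantifier, annotation and read totals were not given in the sources used here. Per the labels' protocols, RNA came from a column kit and libraries from a stranded total RNA kit. Rows with a mean of at least 0.5 FPKM (12788) were analysed as log2(FPKM + 1) with group as the only term in limma 3.58.1 (R 4.3.3; robust, trended moderation; two-sided) and adjusted by Benjamini-Hochberg over all of them at 0.05. The script was tested on simulated data. FPKM is not a count, so no count test was run. SDs are over libraries.

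The genes named were, in each class, the 3 highest in mean FPKM and the 3 with the smallest p, the members at 0 throughout, up to 3 per companion list by p, and the 10 rows most correlated with the members; other members are named for their place at a limit, a sign or a cluster and were chosen after their values were seen. Members and lists were chosen with earlier results of these data known. Stem-loops and shared 50-base stretches came from GENCODE M21, positions from RefSeq GRCm38.p6, where all 67 members matched by Entrez number, and promoters from its promoter table, which held 61 of them. Alternatives changed the pseudocount, filter, scaling, moderation, weights, covariates, replicate block and libraries included.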

Additional observations from a re-analysis of the deposited data

Results flagged for a closer look

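For 60 sets of 10 libraries (the named members and the class sums in each group) the gap between the highest or lowest library and its neighbour was compared with the range of the group. In 11 of them 1 library stood apart, where chance flags about 1 in 20; the sets share libraries and members, so the 11 are not separate events.

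In 10 of the 11 the library was P.T.ATBx 1, always as the highest. Its values were 485 FPKM for Hist1h1a, where the next P.T.ATBx library had 370.4 FPKM, 2293 FPKM for Hist1h4d (next 1950.5), 1140.4 FPKM for Hist1h4f (next 939), 741 FPKM for Hist1h2bb (next 619), 513 FPKM for Hist1h2bn (next 429), 1394 FPKM for Hist2h2bb (next 1094) and 191 FPKM for Hist1h4b (next 153). The same library had 14779.8 FPKM summed over all members (next 12358), 1629 FPKM summed over H1 (next 1366) and 6717 FPKM summed over H4 (next 5356). The other value was Hist1h3e in Control 1, at 246 FPKM, where the next Control library had 177 FPKM. P.T.ATBx 1 and Control 1 also had the largest summed FPKM over all genes; the part of that in these values was not tested.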

How the results depend on the processing

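Among the members named by rule, their summed level and their median, no value changed sign under an alternative run except Hist1h3e, at 0.03 without Control 1. The count of members past the adjusted limma threshold was 0 in all 20 fits that left out 1 library and became 1 under quantile normalization (Hist1h2bn, adjusted p = 0.0483) and 1 on the TPM scale (Hist1h4d, adjusted p = 0.0253), but 0 when short RNAs were left out of that scale's sum. The median member log2 fold change ran from −0.22 to −0.12, and the summed FPKM from −0.24 to −0.13 (log2), when 1 library was left out. Members lower at an unadjusted p under 0.05, 18 in all, numbered 28 on the TPM scale, 3 with the DNA replication level as a covariate, 11 without the 4 libraries whose summed FPKM is over 620000 (an alternative chosen after seeing the data), and 11 (without Control 1 or without Control 6) to 28 (without P.T.ATBx 1) when 1 library was left out. Across all rows, 108 genes passed (59 higher, 49 lower), against 49 on the TPM scale (20 higher, 29 lower), 306 with arrayWeights (154 higher, 152 lower), 88 lower with the DNA replication covariate, and 67 (31 higher) without the 4 libraries. Leaving out 1 library gave 69 (without P.T.ATBx 4) to 193 (without Control 1) genes, with 38 to 104 higher and 31 to 89 lower, and 78 lower without Control 2. For single members, 789 of 791 values stayed on their side of the adjusted threshold; alternatives for companion genes are not given. With the replicate number as a block, 16 members were lower at an unadjusted p under 0.05, 0 passed the adjusted threshold and the median stayed at −0.18. The numbers were not taken as pairing the samples: same-numbered libraries correlated over 0.1 in 5 of 10 pairs (−0.31 to 0.39), and 3 of 10 pairs had their best match at their own number. Read totals are unknown, and near-identical copies limit what a single member's value can show.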
